A study of Homo sapiens with 15 samples.

Results

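The replication-dependent core histone genes and the linker histone genes of the H1 family were examined by RNA-seq of H1299, an established line from a human lung cancer that has lost p53. Members were the protein-coding genes whose current symbol is H1-1 to H1-6 or begins with H2AC, H2BC, H3C or H4C and a number. Of 61552 gene IDs in each count file, 83 had such a symbol, 13 of them were pseudogenes, and 70 were members: 6 for H1, 17 for H2A, 19 for H2B, 13 for H3 and 15 for H4. The rule uses symbols and no expression values, but it was chosen with earlier results of these data known. There were 15 libraries in 5 groups of 3, each with its construct overexpressed in H1299. The libraries of 2023 held cells with the control vector (called Ctrl) and cells with p53 of wild type (called WT). The libraries of 2022 came from cells given p53, LLPSEp53_1 or LLPSEp53_2, of which the last pair are p53 constructs that the series places in a study of p53 liquid-liquid phase separation and that are not described further in the labels. No vector control was sequenced in 2022 among the libraries used here. One library, p53 replicate 2, is labelled as coming from a different batch. All groups share a host line without p53 of its own, and the labels give neither the promoter driving a construct nor the share of cells that carried it. The overexpressed gene's own transcript is not analysed here.

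Histone proteins package DNA, with H2A, H2B, H3 and H4 forming the core of the nucleosome and H1 binding the DNA that links nucleosomes. Replication-dependent histone genes are transcribed in S phase, and their mRNAs normally carry no poly(A) tail but end just after a conserved stem-loop that is bound by the stem-loop binding protein SLBP. The coactivator NPAT, a substrate of cyclin E and CDK2, acts at the histone loci, and the kinase inhibitor p21, encoded by the p53 target CDKN1A, acts on CDK2. Some of these genes are also known to give longer, polyadenylated transcripts that read past the stem-loop.

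The stem-loop was searched in the GENCODE 29 transcripts, since it defines how these mRNAs end. It was found after the coding sequence in 29 of the 66 members that GENCODE 29 holds, while the models of 31 members cover the coding sequence alone. The 29 include H2BC15, whose recorded stem-loop lies at the 3′ end of the RefSeq gene H2AC16. The GENCODE 29 model of H2BC15 reaches it, but it lies outside the RefSeq span of H2BC15. Of the 66 members, 53 lie on chromosome 6, 11 on chromosome 1, and H4C16 on chromosome 12 and H2BC12L on chromosome 21. The form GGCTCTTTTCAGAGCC was shared by 15 genes of H2A, H2B and H3, and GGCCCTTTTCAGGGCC by 5 genes, all for H4. Of the 5 members whose stem-loops follow, only H4C8 and H4C5 were called in the main test. H3C2, which was also called, has no GENCODE 29 model. Stem-loops are printed 5′ to 3′ from the GENCODE 29 transcripts (GRCh38). The 16 bases of the stem-loop are in capitals, with 5 flanking bases on each side.
H4C8 (chr6:26285126-26285151, minus strand): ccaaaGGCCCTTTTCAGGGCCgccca
H4C5 (chr6:26204996-26205021, plus strand): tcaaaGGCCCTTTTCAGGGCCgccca
H4C14 (chr1:149833027-149833052, plus strand): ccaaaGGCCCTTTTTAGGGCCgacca
H2AC6 (chr6:26124664-26124689, plus strand): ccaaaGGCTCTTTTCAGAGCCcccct
H2BC5 (chr6:26158582-26158607, plus strand): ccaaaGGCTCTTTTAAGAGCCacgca
H4C8 and H4C5, the H4 genes that fell with WT p53, carry the same stem-loop, and the model of each gene runs on beyond it. The GENCODE 29 model of H4C5 continues for 1022 bases past the stem-loop, that of H2AC6 for 1114 to 1128 bases, and that of H4C8 for 18 to 1655 bases depending on the transcript.

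Promoters were read because the 4 core classes are known to use different elements. In the windows from 250 bases before to 50 after the RefSeq start (GRCh38.p14), 64 members had an entry. The motifs TATAAA (the TATA box), CCAAT (bound by NF-Y), ATTTGCAT (the octamer bound by POU2F1) and GGTCCG (the core of the H4 site bound by HINFP) were searched on both strands, and none of these words contains another. GGTCCG was present in 12 of 13 H4 promoters, or 92.3%, against 11.2% of 27305 RefSeq promoters. CCAAT was present in 100% of the H1, H2A, H2B and H3 promoters but in 23.1% of the H4 promoters, against 35.7% of all promoters. ATTTGCAT was present in 77.8% of the H2B and 68.8% of the H2A promoters, in none of the H4 promoters, and in 1.8% of all promoters. TATAAA was present in 65.6% of the members' promoters and in 12% of all. A match describes the letters and is not evidence of binding. The windows are not all separate. Those of H2AC7 and H3C4 are the same. Those of many neighbouring H2A and H2B genes on opposite strands overlap, such as H2AC6 with H2BC4 and H2AC8 with H2BC8. H2AC1 and H2BC1 share a copy of ATTTGCAT in this way, and so do H2AC7 and H2BC7. The H2A and H2B percentages for ATTTGCAT therefore count some copies in both classes. For the 3 members that passed a test and the 2 that gave the most reads, the 120 bases before the RefSeq start are printed 5′ to 3′ on the strand of the gene, with these motifs in capitals (ATTGG is CCAAT on the other strand).
H4C8 (chr6:26285535-26285654, minus strand): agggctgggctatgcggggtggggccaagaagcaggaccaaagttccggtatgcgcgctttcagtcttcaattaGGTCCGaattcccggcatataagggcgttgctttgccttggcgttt
H4C5 (chr6:26204490-26204609, plus strand): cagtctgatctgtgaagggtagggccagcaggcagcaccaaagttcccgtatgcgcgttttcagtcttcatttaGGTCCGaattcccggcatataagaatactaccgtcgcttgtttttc
H3C2 (chr6:26032100-26032219, minus strand): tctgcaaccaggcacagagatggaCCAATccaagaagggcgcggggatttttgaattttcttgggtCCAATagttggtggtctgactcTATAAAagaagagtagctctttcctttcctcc
H2AC6 (chr6:26124052-26124171, plus strand): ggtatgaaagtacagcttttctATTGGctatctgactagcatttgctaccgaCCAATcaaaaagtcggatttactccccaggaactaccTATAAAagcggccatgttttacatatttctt
H2BC12 (chr6:27146859-27146978, minus strand): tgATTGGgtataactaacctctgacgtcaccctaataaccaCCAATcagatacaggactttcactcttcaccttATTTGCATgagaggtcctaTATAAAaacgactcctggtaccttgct
Set against H4C8 without gaps, H4C5 was identical at 90 of 120 positions, or 75%. The other 11 H4 promoters were identical to H4C8 at 18.3% to 49.2% of positions. As no gaps were allowed, a shift of a sequence against its annotated start lowers this value. GGTCCG is so shifted in H4C4, H4C11, H4C12, H4C13 and H4C16, and H4C7 lacks it. Identity was taken to H4C8 only. Among the H4 genes not called, H4C14 and H4C15 have the same 120 bases, and H4C11 and H4C12 are nearly the same. A close match between promoters is thus not particular to H4C8 and H4C5. H3C2, which moved in 2022, has TATAAA and 2 copies of CCAAT in this stretch, and no GGTCCG.

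Total counts were 13535397 to 19228748 per library, and the histone genes took 6006 to 12872 of them, or 0.036% to 0.0788%. Levels are in CPM, the usual scale of counts divided by the size of the library. A count of 0 allows a level of up to 0.163 to 0.22 CPM, taken as 3 counts of the scaled library and covering counting error only. Library sizes were scaled by TMM within the year, so levels of 2022 and 2023 are not compared. The p53 targets used to check the labels were higher in WT: CDKN1A at 758 ± 37.9 CPM against 242 ± 10.4 in Ctrl, and MDM2, which encodes the ubiquitin ligase of p53, at 271 ± 26.5 against 58.8 ± 2.0 (SD, n = 3 each). In 2022 CDKN1A stood at 284 and 286 CPM in p53 replicates 1 and 3, at 399 to 451 in LLPSEp53_1 and at 232 to 281 in LLPSEp53_2. MDM2 stood at 202 and 165 CPM in p53 replicates 1 and 3. It was at 154 to 234 CPM in LLPSEp53_1 and at 125 to 165 in LLPSEp53_2, and its groups overlapped. In p53 replicate 2 CDKN1A was at 723 CPM and MDM2 at 368. That library stood apart for the histone genes too (described after the comparisons), and it enters no difference between groups, so p53 is represented by replicates 1 and 3. The keratin genes KRT8 and KRT18 were at 782 CPM or more in all libraries and the mesenchymal gene VIM at 699.8 or more, while the epithelial genes EPCAM and CDH1 were at 1.66 or less. These genes come from a list of 9 for epithelial and lung identity. The list also held NKX2-1, SFTPB, SFTPC and NAPSA, whose levels are not given here. Of the 9, 4 passed the filter on low counts in 2023 and 5 in 2022. Of 10 markers of blood, endothelial and liver cells, PTPRC and HBB had no count in any library and none exceeded 2.49 CPM.

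Most histone reads came from a handful of genes. H2BC12, which encodes a core histone H2B, gave 20.1% to 29.7% of the histone reads of a library in 2023 and 24.1% to 43.6% in 2022. H2AC6, for H2A, gave 22.8% to 27.9% in 2023 and 13.3% to 21.3% in 2022. With H1-2, H2BC5 and H4C8 they made up 67.5% to 76.4% of the histone reads of every library. These are shares of reads and depend on gene length. Between 29 and 42 members had at least 10 counts in a library, 11 to 19 had none in a given library, and H2AC1, H2BC1, H3C11, H4C6 and H4C13 had no count in any of the 15 libraries. The filter on low counts kept 32 members in 2023 and 34 in 2022.

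**Figure D1:**
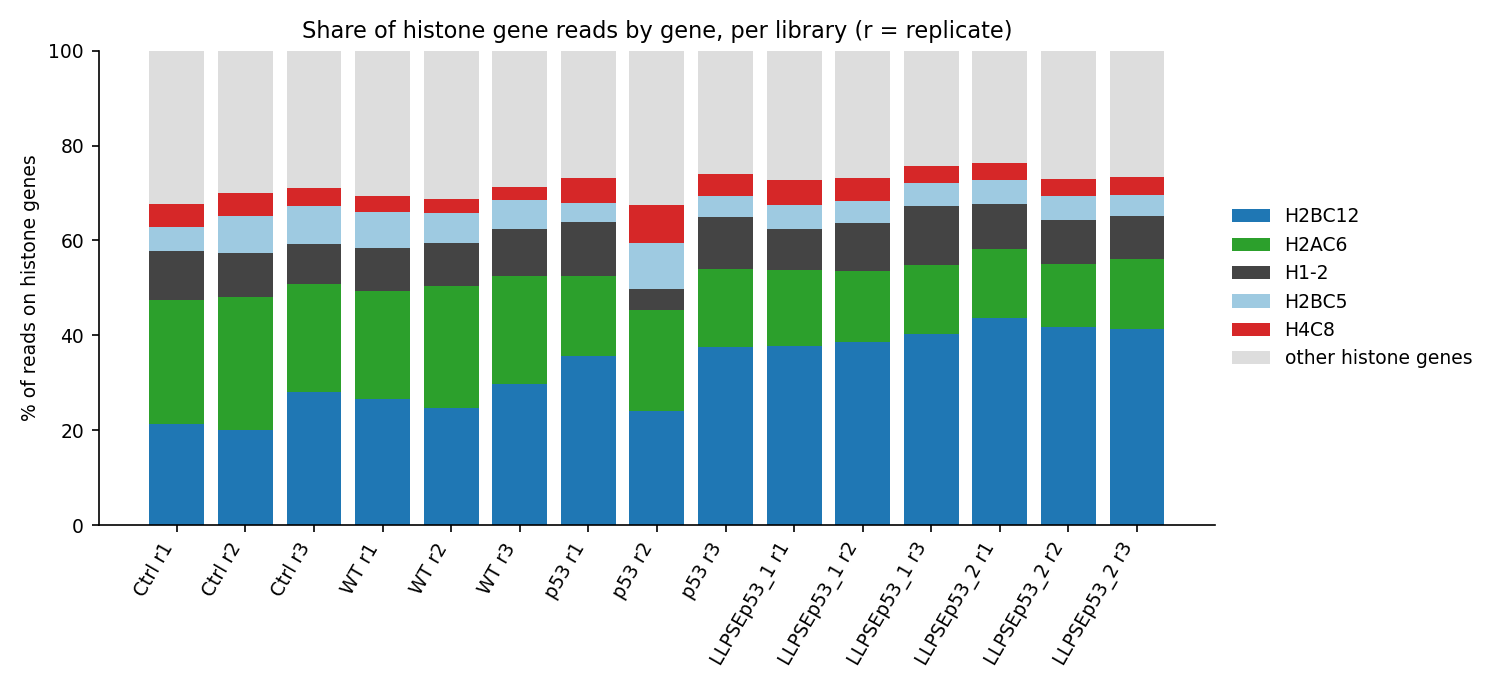
Share of the reads on histone genes (y axis, percent) by gene in each of the 15 libraries (x axis); bars stack the 5 genes with the most reads and all other histone genes. The 5 genes hold 67.5% to 76.4% of each bar, and in p53 replicate 2 the H2BC12 segment is 24.1%.

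The 26 members with an extended gene model (a GENCODE 29 transcript running at least 100 bases past the stem-loop, or a RefSeq gene span of at least 1000 bases) held 79.9% to 86.7% of the histone reads, and the 44 others the rest. That grouping was made after the counts had been seen. The H2BC12 model of GENCODE 29 is the coding sequence alone, but its RefSeq span is 8566 bases and overlaps H4C9. H2BC12 therefore entered the group by its RefSeq span only, and it alone gave 20.1% to 43.6% of the histone reads. So did H2BC5, whose GENCODE 29 model ends 39 bases past the stem-loop. The share held by models that run past the stem-loop in GENCODE 29 is thus lower than that of the group. Which transcripts the authors counted on, and whether polyadenylated RNA was selected, is not given in the sources used here, and the part of either in these shares was not tested.

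The comparison of WT with Ctrl asks which genes respond to p53. Of the 32 histone genes tested, 2 fell with WT p53 and none rose, and both encode histone H4. Over all 16156 genes tested, 0.873% were called lower and 3.24% higher in WT.

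H4C5 (ENSG00000276966; GENCODE 29, chr6:26204552-26206038, plus strand, 1 exon) was at 2.19, 2.25 and 1.84 CPM in the Ctrl libraries, or 37, 40 and 34 counts. It was at 0.344, 0.481 and 0.353 CPM in WT, or 6, 8 and 6 counts. All WT libraries lay far below all Ctrl libraries. The difference was 5.26-fold lower, -2.40 ± 0.39 on the log2 scale (SE; edgeR quasi-likelihood test, Benjamini-Hochberg adjusted p = 0.000523). H4C8 (ENSG00000158406; chr6:26277609-26285638, minus strand, up to 3 exons) was at 19.98, 19.9 and 15.2 CPM in Ctrl and at 12.3, 10.3 and 10.3 in WT. Its groups did not overlap either, and it was 1.67-fold lower (-0.74 ± 0.15; edgeR adjusted p = 0.00464). Neither gene overlaps another in GENCODE 29 or RefSeq. Both calls held in every alternative run, with the adjusted p of H4C8 reaching 0.0365 without WT replicate 3 and that of H4C5 reaching 0.00773 without WT replicate 1.

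**Figure D2:**
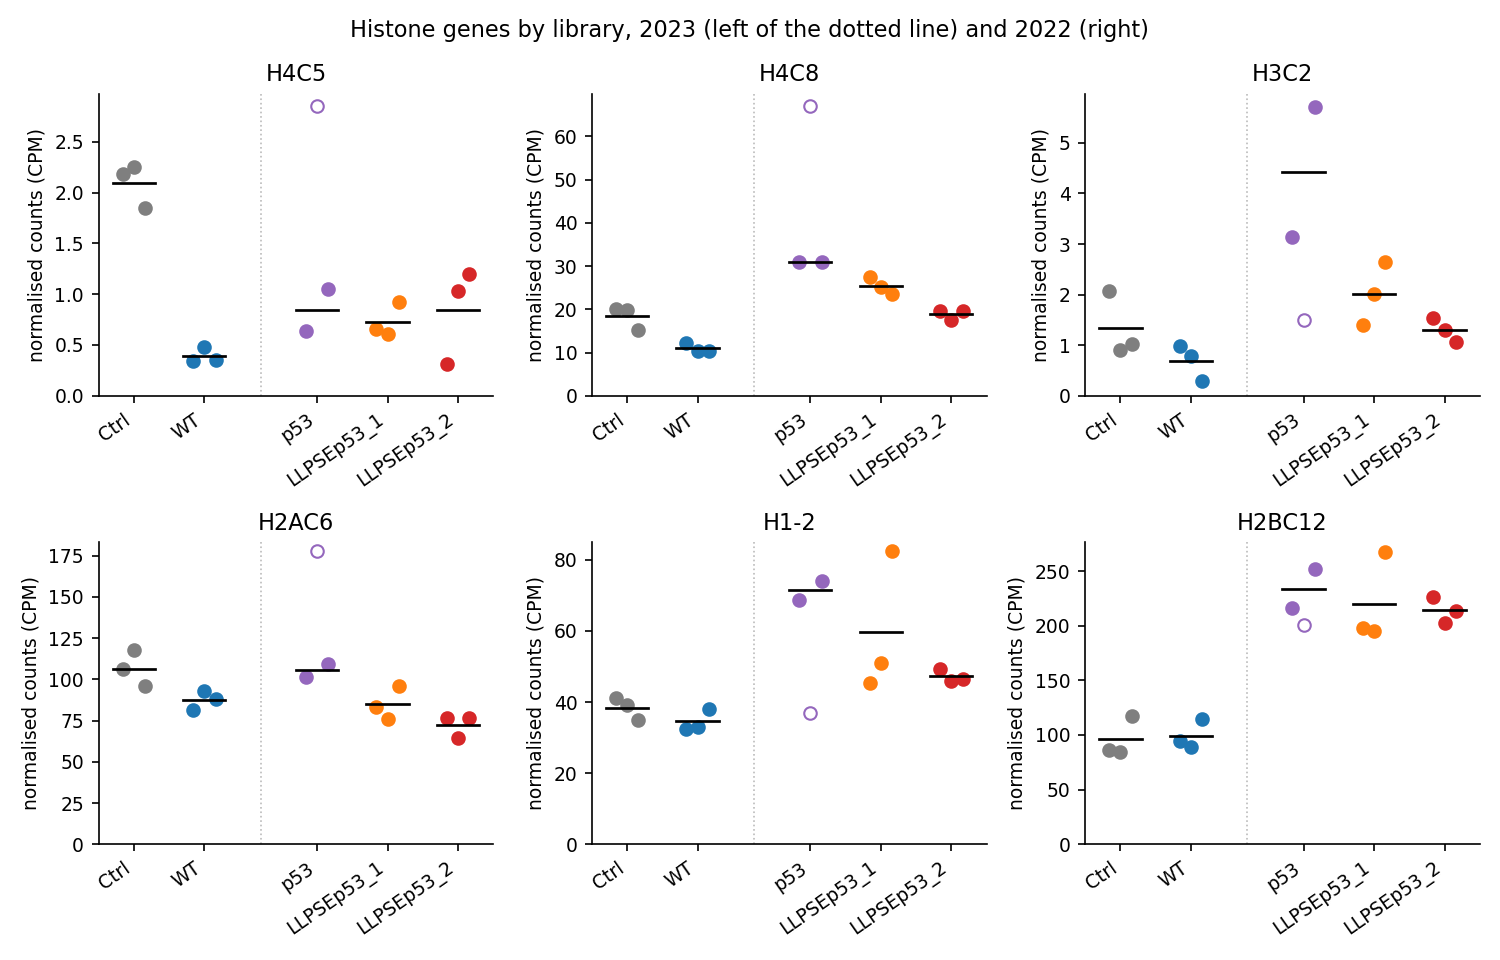
Normalised counts (y axis, CPM, linear from 0) of 6 histone genes in each library; points are libraries, horizontal lines are group means, and the open point is p53 replicate 2, which is left out of the p53 mean. The dotted line parts 2023 from 2022, which were scaled separately. H4C5 sits at 1.84 to 2.25 CPM in Ctrl and 0.344 to 0.481 in WT.

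The other H4 genes tested did not pass. H4C16, the only member on chromosome 12, was at 4.55, 2.25 and 1.74 CPM in Ctrl and at 1.89, 1.56 and 1.88 in WT, and these values overlap. Of the 6 H4 genes tested, 5 were below 0 on the log2 scale, with a class median of -0.69. Summed over all 15 H4 genes, the level was 31.3, 30.3 and 24.7 CPM in Ctrl and 18.3, 17.0 and 16.2 in WT, or 28.7 ± 3.55 against 17.2 ± 1.04 (SD, n = 3 each). The H4 sums of the groups did not overlap, and most of the sum is H4C8. The sums of H2A, at 129.4 to 152.5 CPM in Ctrl and 111.3 to 126.3 in WT, and of H3, at 17.3 to 23.4 and 15.3 to 16.2, did not overlap either, while those of H1 and H2B did.

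H2A and H2B, which pair in the nucleosome, showed smaller differences. H2AC6 (ENSG00000180573; chr6:26124145-26139116, plus strand) was at 106, 118 and 95.6 CPM in Ctrl and at 81.1, 92.6 and 88.3 in WT. Its groups did not overlap, but the difference of -0.29 ± 0.11 did not pass (edgeR adjusted p = 0.16). With offsets for GC content it did, at -0.39 (edgeR adjusted p = 0.0315). H2AC25, for H2A on chromosome 1, was at 21.8, 15.1 and 14.3 CPM in Ctrl and 13.2, 13.7 and 14.8 in WT, which overlap. H2BC12 (ENSG00000197903; chr6:27146418-27146798, minus strand) was at 86.4, 84.9 and 117 CPM in Ctrl and at 94.7, 89.0 and 115 in WT, with no visible order between the groups. H2BC5 was at 20.5, 33.4 and 33.7 CPM in Ctrl and 26.8, 23.2 and 24.0 in WT, and here Ctrl replicate 1 lay below all WT libraries. Without that library, H2BC5 was called lower, which made 3 histone genes called. H2BC5 overlaps the antisense gene H2BC6-AS1 and the pseudogene LARP1P1, and whether the counting used strand is unknown.

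H2BC18, an H2B gene on chromosome 1 that overlaps FCGR1A, was at 1.3, 1.69 and 1.19 CPM in Ctrl and 0.745, 0.541 and 0.647 in WT. H2BC6 was at 1.36, 1.58 and 1.25 CPM in Ctrl and 0.573, 0.421 and 0.941 in WT. Neither gene's groups overlapped, and the differences of -1.10 ± 0.39 and -1.10 ± 0.41 did not pass (edgeR adjusted p = 0.128 and 0.145). Each rests on 7 to 30 counts per library. Of 13 H2B genes tested, 6 were below 0 and 7 above, with a class median of 0.01.

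Among the linker histones, H1-2 (ENSG00000187837; chr6:26055787-26056428, minus strand) was at 41.1, 39.1 and 35.04 CPM in Ctrl and at 32.6, 33.0 and 38.2 in WT, which overlap. H1-4 was at 1.48, 1.41 and 1.14 CPM in Ctrl and 0.630, 1.38 and 0.823 in WT. For H3, H3C10 was at 13.4, 14.7 and 9.98 CPM in Ctrl and 9.34, 10.8 and 10.7 in WT, and H3C8 at 4.49, 1.63 and 4.56 against 4.01, 1.98 and 4.29. H3C2 was at 2.07, 0.900 and 1.03 CPM in Ctrl and 0.974, 0.782 and 0.294 in WT (-0.95 ± 0.46; edgeR adjusted p = 0.286). All of these H1 and H3 genes had overlapping groups.

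In all, 21 of the 32 histone genes were lower in WT than in Ctrl, with a median log2 change of -0.22, against -0.01 for all genes tested, of which 51.7% were below 0. The WT libraries lay entirely below the Ctrl libraries for 6 of the 32, while 10.5% of all genes tested did so. At an unadjusted p under 0.05 there were 6 of 32 lower and 0 higher, where 9.22% of all genes were lower and 8.94% higher. Summed over all members, the level was 405.5 to 421 CPM in Ctrl and 356.5 to 387 in WT.

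**Figure D3:**
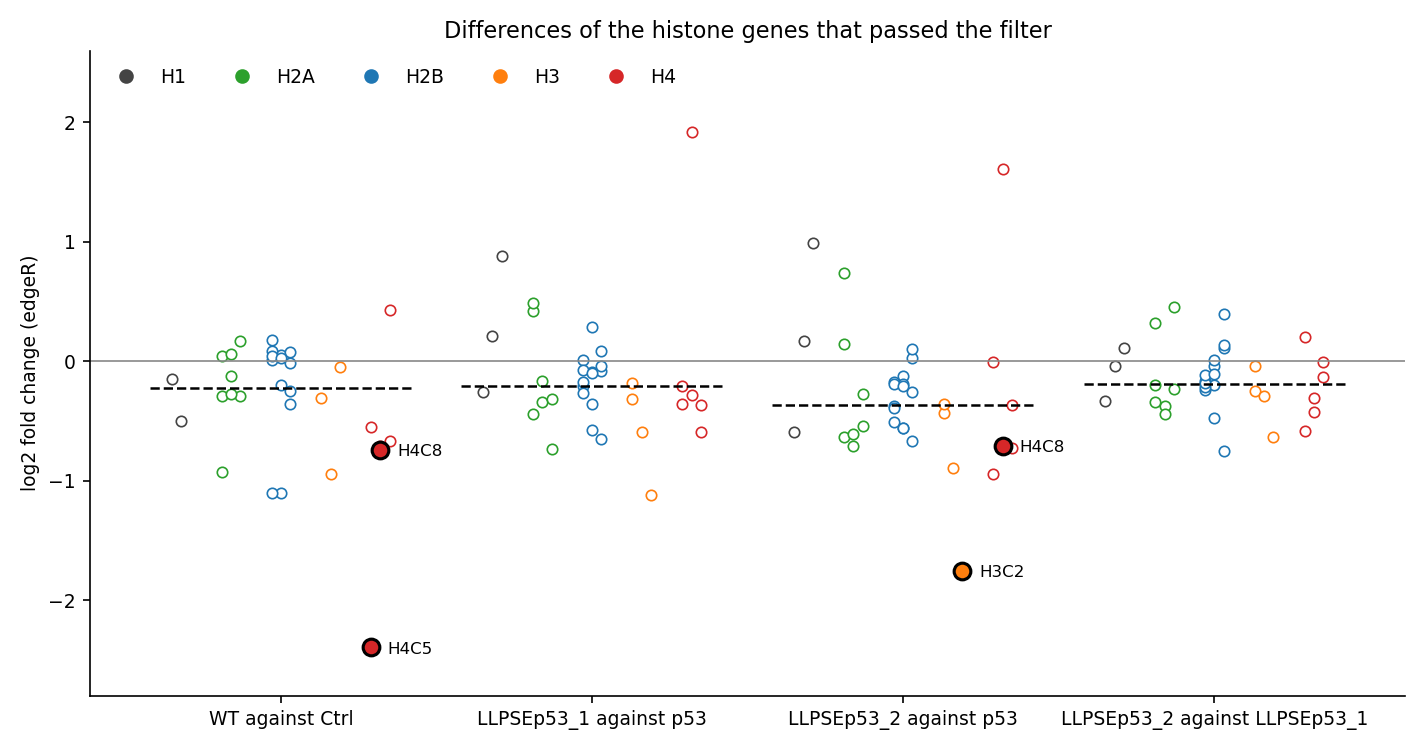
Log2 fold changes (y axis, edgeR) of the histone genes that passed the filter in the 4 comparisons (x axis), coloured by class; filled points with a black rim passed the adjusted threshold of 0.05, and dashed lines are medians. Called genes are H4C5 and H4C8 in WT against Ctrl and H3C2 and H4C8 in LLPSEp53_2 against p53, all below 0; the high H4 point in both comparisons with p53 is H4C15.

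In the 2022 libraries the question is how the LLPSEp53 constructs differ from p53. Of the 34 histone genes tested, 2 were lower with LLPSEp53_2 than with p53, H3C2 and H4C8, and none was higher. Over all 17459 genes, 1.83% were called lower and 0.103% higher. With LLPSEp53_1 against p53, no histone gene was called (edgeR; 1 lower and 0 higher at an unadjusted p under 0.05; 0 called by DESeq2), where 0.836% of all genes were called lower and 0.0515% higher. Both comparisons use the same p53 libraries, so they are not independent.

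H4C8 was at 30.9 and 30.8 CPM in p53 replicates 1 and 3. It was at 27.5, 25.3 and 23.6 CPM with LLPSEp53_1 and at 19.5, 17.6 and 19.5 with LLPSEp53_2. The 3 groups did not overlap and stood in that order. H4C8 was 1.64-fold lower with LLPSEp53_2 than with p53 (-0.71 ± 0.15; edgeR adjusted p = 0.0251). The difference of LLPSEp53_1 from p53 was -0.28 ± 0.15 and did not pass (edgeR adjusted p = 0.429). The direct difference of LLPSEp53_2 from LLPSEp53_1 was -0.43 ± 0.13 and did not pass either (edgeR adjusted p = 0.342).

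H3C2 (ENSG00000286522; RefSeq GRCh38.p14, chr6:26031589-26032099, minus strand) encodes the replication-dependent H3. It was at 3.13 and 5.71 CPM in p53 replicates 1 and 3, or 49 and 92 counts. It was at 1.39, 2.01 and 2.65 CPM with LLPSEp53_1 and at 1.54, 1.295 and 1.07 with LLPSEp53_2. Both p53 libraries lay above all others. H3C2 was 3.38-fold lower with LLPSEp53_2 (-1.76 ± 0.36; edgeR adjusted p = 0.0251), and with LLPSEp53_1 the difference did not pass (-1.12 ± 0.35; edgeR adjusted p = 0.208). In p53 replicate 2 it was at 1.49 CPM, within the range of the LLPSEp53 libraries.

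The LLPSEp53_2 calls depended on single libraries. Without LLPSEp53_2 replicate 1, 2 or 3, or without p53 replicate 3, neither gene was called. Without p53 replicate 1 only H3C2 was, with the adjusted p of H4C8 at 0.163. Without LLPSEp53_1 replicate 3, which enters this difference only through the shared spread and scaling, 4 genes were called, H1-2 and H2AC6 joining H3C2 and H4C8. Over the left-out libraries of p53 and LLPSEp53_2 the log2 change of H4C8 stayed between -0.73 and -0.66 and that of H3C2 between -2.12 and -1.26. With p53 replicate 2 counted as a further p53 library, in place of the batch term, neither gene passed (edgeR adjusted p = 0.163 for H3C2 and 0.0533 for H4C8). With length offsets, or with only these groups in the fit, 5 genes were called, adding H1-2, H2AC6 and H2AC25.

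H4C5, the gene with the largest fall in WT against Ctrl, had no such difference in 2022. It was at 0.639 and 1.05 CPM in p53 replicates 1 and 3, at 0.659, 0.603 and 0.923 with LLPSEp53_1 and at 0.308, 1.04 and 1.195 with LLPSEp53_2. All groups overlapped, and the log2 differences from p53 were -0.21 ± 0.55 and -0.01 ± 0.54, whose sign turned when single libraries were left out. H4C16 was at 4.15 and 3.54 CPM with p53, at 3.15, 1.41 and 3.08 with LLPSEp53_1 and at 1.60, 2.27 and 3.08 with LLPSEp53_2, so p53 was the highest group. H4C12 was at 2.56 and 3.29 CPM with p53 and at 1.73, 1.88 and 0.943 with LLPSEp53_2 (-0.94 ± 0.35; edgeR adjusted p = 0.258).

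For H2A, H2AC6 was at 102 and 109.5 CPM with p53, at 83.5, 75.8 and 95.8 with LLPSEp53_1 and at 76.6, 64.6 and 76.5 with LLPSEp53_2. Both p53 libraries were above all LLPSEp53 libraries. The differences were -0.31 ± 0.15 for LLPSEp53_1 and -0.54 ± 0.15 for LLPSEp53_2 (edgeR adjusted p = 0.396 and 0.0959). H2AC25 was at 19.1 and 13.6 CPM with p53, at 13.9, 12.9 and 16.9 with LLPSEp53_1 and at 11.3, 10.9 and 9.87 with LLPSEp53_2. Here the lowest group was LLPSEp53_2, at -0.61 ± 0.19 from p53 and -0.44 ± 0.18 from LLPSEp53_1 (edgeR adjusted p = 0.171 and 0.603). H2AC11 was at 9.39 and 12.4 CPM with p53, at 8.27, 7.57 and 8.25 with LLPSEp53_1 and at 6.35, 8.42 and 6.29 with LLPSEp53_2, with p53 highest (-0.44 ± 0.20 and -0.64 ± 0.20; edgeR adjusted p = 0.384 and 0.172). H2AC13, at -0.71 ± 0.28 with LLPSEp53_2, did not pass either (edgeR adjusted p = 0.285).

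The H2B genes with the most reads had overlapping groups. H2BC12 was at 216 and 252 CPM with p53, at 198, 196 and 268 with LLPSEp53_1 and at 227, 203 and 214 with LLPSEp53_2. H2BC5 was at 25.2 and 29.1 CPM with p53, at 26.2, 23.6 and 32.1 with LLPSEp53_1 and at 25.3, 24.4 and 22.3 with LLPSEp53_2. H2BC15 was the only H2B gene with an unadjusted p under 0.05 in the 2022 comparisons, at -0.51 ± 0.19 with LLPSEp53_2 against p53 (edgeR adjusted p = 0.259), and it overlaps other H2A genes in the annotation.

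The linker histone H1-2 was at 68.8 and 74.0 CPM with p53, at 45.4, 50.9 and 82.5 with LLPSEp53_1 and at 49.4, 45.9 and 46.5 with LLPSEp53_2. LLPSEp53_1 replicate 3 was above both p53 libraries and the other LLPSEp53_1 libraries below them. The difference of LLPSEp53_2 from p53 was -0.59 ± 0.21 (edgeR adjusted p = 0.227). H1-4 was at 0.639 and 0.558 CPM with p53, at 0.732, 0.670 and 0.677 with LLPSEp53_1 and at 0.431, 0.972 and 0.629 with LLPSEp53_2, on 7 to 15 counts each. For H3, H3C10 was at 21.1 and 20.9 CPM with p53, at 16.03, 17.7 and 22.0 with LLPSEp53_1 and at 13.4, 14.2 and 19.1 with LLPSEp53_2 (-0.43 ± 0.19 from p53; edgeR adjusted p = 0.375). H3C8 was at 8.63 and 9.30 CPM, at 7.17, 6.03 and 8.37, and at 5.61, 7.25 and 8.11 in the same order of groups. Both p53 libraries were above all LLPSEp53_2 libraries for these H3 genes.

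Across the 34 members, 26 were below 0 with LLPSEp53_1 against p53 (median log2 change -0.21) and 27 with LLPSEp53_2 against p53 (median -0.37), beside medians of 0.00 and 0.01 over all genes. The LLPSEp53_2 libraries lay entirely below both p53 libraries for 17 of the 34, and 17.5% of all genes did so. For LLPSEp53_1 this was 11 of 34 against 14.7% of all genes. Entirely above both p53 libraries were 1 of the 34 with LLPSEp53_2 and 2 with LLPSEp53_1, and the share of all genes lying above was not counted. At an unadjusted p under 0.05, 10 of the 34 histone genes were lower and 0 higher with LLPSEp53_2, where 7.94% of all genes were lower and 4.89% higher. With LLPSEp53_1 against p53, where 1 histone gene was lower, the shares of all genes were 7.34% lower and 5.72% higher. The medians were -0.43 and -0.48 with length offsets and -0.54 and -0.75 without the batch term. Histone genes are short, with a median length of 1196 bases among those tested with a GENCODE 29 model against 4419 for all genes tested, and the part of length in these differences was not tested further.

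Between the 2 constructs, LLPSEp53_2 against LLPSEp53_1, no histone gene was called (edgeR; 2 lower and 0 higher at an unadjusted p under 0.05; 0 called by DESeq2). Over all genes, 0.349% were called lower and 0.0229% higher, and at the unadjusted threshold 4.5% were lower and 2.73% higher. H4C8 and H2AC25 had the smallest p, and they were the members whose LLPSEp53_2 libraries all lay below the LLPSEp53_1 libraries, 2 of 34 against 7.03% of all genes. H3C2 differed by -0.64 ± 0.35 (edgeR adjusted p = 0.76). In all, 26 of 34 were below 0, with a median of -0.19 against 0.00 for all genes.

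**Figure D4:**
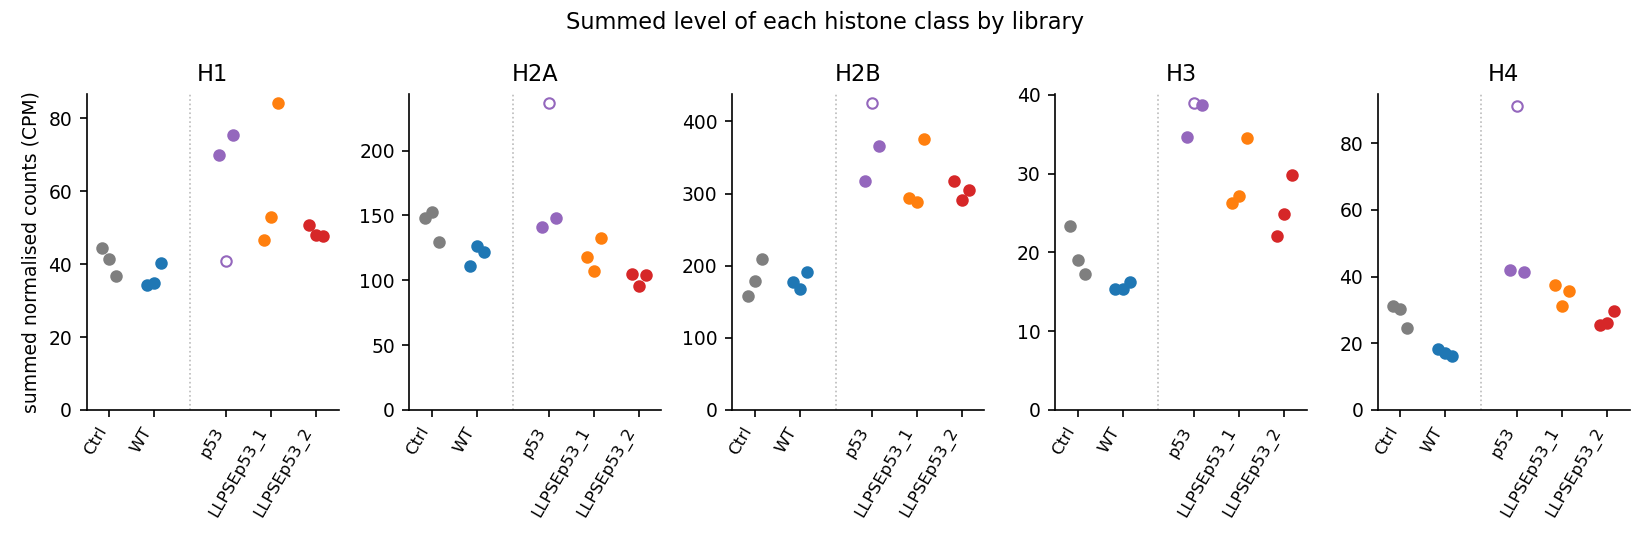
Summed normalised counts of all members of each class (y axis, CPM, linear from 0) in each library; the dotted line parts 2023 from 2022 and the open point is p53 replicate 2. H4 sums are 16.2 to 18.3 CPM in WT and 24.7 to 31.3 in Ctrl, and 25.6 to 29.6 with LLPSEp53_2 against 41.3 and 42.1 in p53 replicates 1 and 3.

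Summed by class, H4 stood at 41.7 ± 0.62 CPM with p53 (SD, n = 2), 34.7 ± 3.25 with LLPSEp53_1 and 27.1 ± 2.17 with LLPSEp53_2 (SD, n = 3 each). The 3 groups did not overlap. H2A stood at 145 ± 5.09, 119.4 ± 12.8 and 102 ± 5.08 CPM in the same order. H3 stood at 36.7 ± 2.79, 29.3 ± 4.51 and 25.6 ± 3.95 CPM. H2B, at 342 ± 34.2, 319 ± 48.7 and 304.5 ± 12.9 CPM, and H1, at 72.7 ± 3.90, 61.2 ± 20.2 and 48.8 ± 1.62 CPM, were dominated by H2BC12 and H1-2. The LLPSEp53_1 sums overlapped the p53 sums for H1 and H2B and those of LLPSEp53_2 for H1, H2B and H3. No test was made on sums over members.

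In p53 replicate 2, the library of its own batch, 26 of the 34 histone genes were above all 8 other libraries of 2022 and 2 were below them. Of all genes tested, 31.8% were above all 8 others, and 27.5% were below them. H2BC5 was at 80.7 CPM there against 22.3 to 32.1 elsewhere, H4C8 at 67.1 against 17.6 to 30.9, and H2AC6 at 178 against 64.6 to 109.5. H2BC6, at 11.8 CPM, was 4.32 times the mean of p53 replicates 1 and 3, and H4C5, at 2.85 CPM, was 3.36 times that mean. H2BC12, the gene with the most reads, was within the others' range at 200.5 CPM. H1-2, at 36.8 CPM, and H3C8, at 4.08, were the members below all others. By class, 12 of 14 H2B, 6 of 7 H2A and 5 of 6 H4 genes were above all others, against 2 of 4 H3 and 1 of 3 H1 genes. In the same library, 10 of 23 S phase genes were above all others and 4 below. Of the 25 genes of histone transcription and 3′ end processing, 11 were above and 9 below, and of the 11 histone variants outside the members' rule, 2 were above and 3 below. With 1 library in that batch, the batch and the library cannot be told apart, and no test was made.

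**Figure D5:**
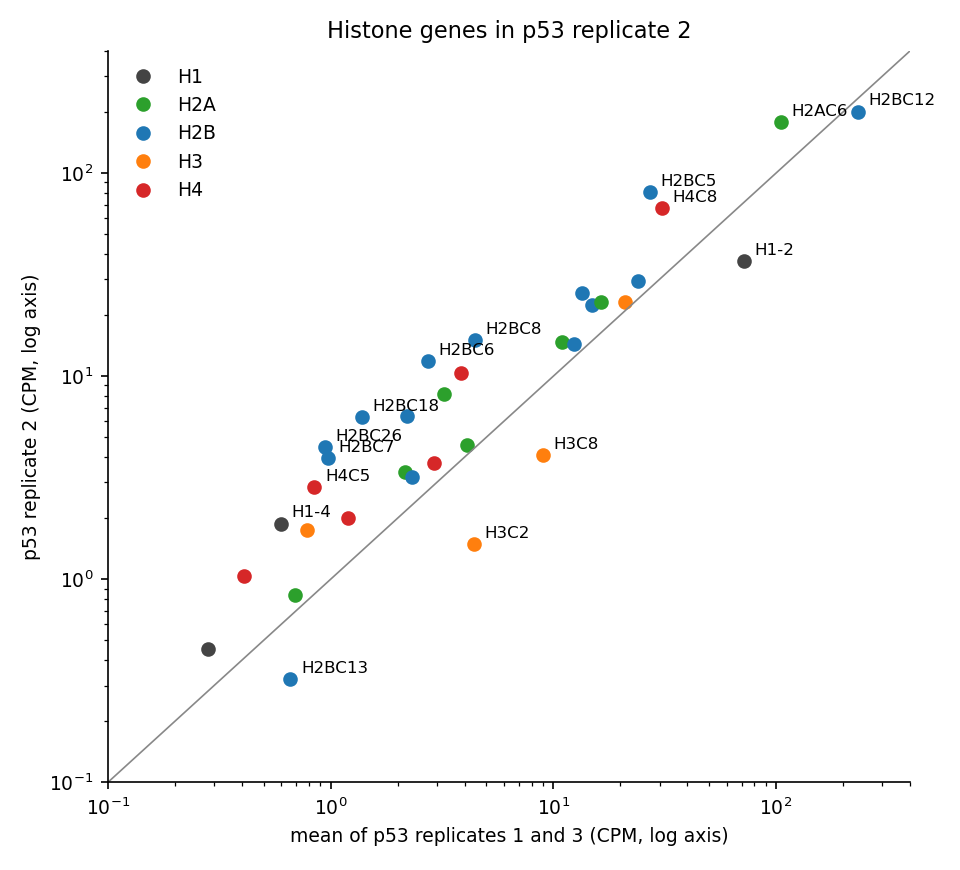
Level of each of the 34 histone genes in p53 replicate 2 (y axis, CPM, log axis) against the mean of p53 replicates 1 and 3 (x axis, CPM, log axis), coloured by class, with the line of equality. Most points lie above the line, H2BC6 at 4.32 times and H2BC5 at 2.97 times the mean, while H1-2 and H3C2 lie below it at 0.516 and 0.337 times.

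Some members are near-identical copies whose reads the authors' counting could split. H4C14 and H4C15, on chromosome 1, were counted at 0.9998 to 2.25 CPM and at no more than 1 count, respectively, in 2023. In 2022 H4C14 was at 0.062 to 0.647 CPM, and H4C15 at 0.123 to 2.58 CPM, with 2, 18 and 40 counts in the LLPSEp53_2 libraries. The sum of both ran from 0.9998 to 2.25 CPM in 2023 and from 0.335 to 2.71 in 2022, and the values of either gene alone are uncertain. H4C15 had the highest fitted difference of all histone genes in both comparisons with p53, without passing. Without the filter on low counts, H4C15 was the 1 histone gene called with LLPSEp53_1 against p53, and it was higher. H4C14 was lower in WT without passing (-0.71 ± 0.34; edgeR adjusted p = 0.268). H2AC18 and H2AC19, and H3C14 and H3C15, are copies of the same kind.

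Genes that make and use histone mRNA were followed for the same comparisons. Of 25 genes of histone transcription and 3′ end processing, all were tested and none was called in any of the 4 comparisons by edgeR. The smallest p in WT against Ctrl was that of SYMPK, a scaffold of the 3′ end cleavage complex (-0.28 ± 0.11; edgeR adjusted p = 0.18). At an unadjusted p under 0.05, 3 of the 25 were lower in WT, 3 were higher with LLPSEp53_1 against p53, 1 was higher and 1 lower with LLPSEp53_2 against p53, and 1 was lower with LLPSEp53_2 against LLPSEp53_1. Of all genes, 9.22% were lower in WT and 5.72% higher with LLPSEp53_1 against p53. With LLPSEp53_2, 4.89% were higher and 7.94% lower against p53, and 4.5% were lower against LLPSEp53_1. SLBP was at 144 ± 17.5 CPM in Ctrl and 130.2 ± 3.06 in WT, and HINFP, the H4 promoter factor, at 50.1 ± 3.20 and 44.9 ± 1.15 (SD, n = 3 each). NPAT was at 34.5 ± 0.77 CPM in Ctrl and 35.9 ± 0.66 in WT.

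Of 19 histone chaperone genes, TONSL, which acts with histones at replication forks, fell in WT from 46.6 ± 3.79 to 33.6 ± 0.52 CPM (SD, n = 3 each; -0.47 ± 0.11; edgeR adjusted p = 0.0139). That call was lost with GC offsets (-0.24; edgeR adjusted p = 0.226) and without WT replicate 1, WT replicate 3 or Ctrl replicate 3 (adjusted p = 0.0909, 0.0666 and 0.107). ASF1B, which carries H3 and H4 to the nucleosome assembly factors, was higher with LLPSEp53_2 than with p53, at 66.5 ± 5.98 (SD, n = 3) against 41.7 ± 1.99 CPM (SD, n = 2; 0.68 ± 0.16; edgeR adjusted p = 0.0482). Without p53 replicate 1 or 3 its adjusted p was 0.221 and 0.28, without LLPSEp53_2 replicates 1, 2 and 3 it was 0.178, 0.228 and 0.0711, and without LLPSEp53_1 replicate 2 it was 0.0814. With relative log expression or upper-quartile scaling it was 0.0505 and 0.0578, and without the batch term 0.161. No other chaperone gene was called.

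Of 23 S phase genes, PCNA, the sliding clamp of DNA polymerase and a known p53 target, rose in WT from 92.4 ± 9.25 to 136 ± 10.0 CPM (SD, n = 3 each; 0.56 ± 0.11; edgeR adjusted p = 0.00332), in all alternatives run. No other S phase gene was called in any comparison. With LLPSEp53_2 against p53, 7 of the 23 were higher and 0 lower at an unadjusted p under 0.05, with a median log2 change of 0.28, and with LLPSEp53_1 against p53 4 were higher and 0 lower, with a median of 0.23. The shares of all genes higher at that threshold were 4.89% and 5.72%, and those lower were 7.94% and 7.34%. In these comparisons RRM2, a subunit of ribonucleotide reductase, differed by 0.48 ± 0.16 and 0.50 ± 0.16 (edgeR adjusted p = 0.202 and 0.238). The histone medians in the same comparisons were -0.37 and -0.21. In WT against Ctrl, 2 S phase genes were higher and 4 lower at an unadjusted p under 0.05, with a median of -0.07. The shares of all genes there were 8.94% higher and 9.22% lower.

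Of 11 histone variant genes, most of which are known to be expressed outside S phase too and to give polyadenylated mRNAs, 10 were tested in 2023 and 11 in 2022, and none was called (edgeR). At an unadjusted p under 0.05, 2 were lower in WT than in Ctrl, 3 were higher with LLPSEp53_1 and 2 higher with LLPSEp53_2 than with p53, and none passed in either direction between the constructs. Of all genes, 9.22% were lower in WT, and 5.72% and 4.89% were higher with LLPSEp53_1 and LLPSEp53_2 than with p53. The smallest p in WT against Ctrl was that of H1-10, a linker histone variant, at -0.32 ± 0.12 (edgeR adjusted p = 0.148). Against p53, H1-10 differed by 0.97 ± 0.33 with LLPSEp53_2 and 0.86 ± 0.33 with LLPSEp53_1 (edgeR adjusted p = 0.209 and 0.306). The medians of the variants were -0.0034 in WT against Ctrl, 0.37 with LLPSEp53_1 and 0.25 with LLPSEp53_2 against p53, and -0.03 between the constructs.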

How the data were processed

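RNA-seq counts of 15 H1299 libraries were used. The deposited files hold read counts per Ensembl gene for a single library each, whole numbers without normalisation, as judged from the values. Per the submitters' processing notes, Trimmomatic 0.39, STAR 2.7.10a and the build GRCh38 were used. Not given in the sources used here are the counting tool, its annotation, its strand setting, its treatment of reads with several matches and any poly(A) selection. Per the labels' protocols the input was total RNA. Symbols were found for 61399 of 61552 IDs, and 58352 IDs are in GENCODE 29. Headers inside the LLPSEp53_1 files lack the number of the construct, and sample titles were used.

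The main test was edgeR 4.0.16 under R 4.3.3 (TMM, filterByExpr, glmQLFit and glmQLFTest) over all genes, adjusted by Benjamini-Hochberg, at a threshold of 0.05. The 6 libraries of 2023 and the 9 of 2022 were fitted separately, the latter with a term for the other batch. The steps were tested on simulated data. The labels do not say that replicates were separate cultures, so p-values cover only the library-to-library spread, possibly a technical one. Within groups, library pairs differed by more than sampling noise (6.76 to 112 as chi-square over its degrees of freedom).

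Values in every library are given for members called in any comparison, for the 2 members with the highest mean CPM in each class and year, and for the 3 smallest p of each comparison. From the other lists, called genes and up to 3 with the smallest p were named. Outside that rule, with their values known, SLBP, HINFP and NPAT were named for their roles, and H2BC6, H4C12, H4C14 and H4C15 were given by library or range. One gene of the list of histone variants is not reported here. Members and lists were chosen with earlier results of these data known. Alternatives were scaling by upper quartile or relative log expression, no filter, DESeq2 1.42.0, each library left out, a replicate block, offsets for GC content and gene length, no batch term, and only the groups compared. Sequences are from GENCODE 29 transcripts and RefSeq (GRCh38.p14).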

Additional observations from a re-analysis of the deposited data

How the results depend on the processing

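In WT against Ctrl the number of histone genes called was 2 or 3 in every alternative and the median log2 change kept its sign. With LLPSEp53_2 against p53 the 2 calls became 0 with the replicate block, 0 with the replicate block and GC offsets, 0 without the batch term, 5 with gene length offsets and 5 with only the 2 groups compared, and 0 to 4 when single libraries were left out. With LLPSEp53_1 against p53, 0 became 1 without the filter on low counts. The medians for LLPSEp53_1 and LLPSEp53_2 against p53 moved to -0.43 and -0.48 with length offsets and to -0.54 and -0.75 without the batch term. Same-numbered libraries did not deviate together throughout (correlations of deviations -0.684 to 0.421), so replicate numbers were not taken as pairs. With the replicate block, H3C2 was at -1.69 and H4C8 at -0.68 (edgeR adjusted p = 0.0766 and 0.161), and ASF1B also lost its call (adjusted p = 0.231). The block changed no call of a histone gene in WT against Ctrl. The cause of these moves was not tested.

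Signs turned for H4C5 in the 2022 comparisons, where it was not called. Its log2 difference ran from -0.52 to 0.19 for LLPSEp53_1 against p53, from -0.34 to 0.39 for LLPSEp53_2 against p53 and from -0.13 to 0.60 between the constructs when single libraries were left out. Of the other values of named genes under the alternatives, 1021 kept direction and side of the threshold, 28 passed it and 40 no longer did. With 1 p53 library left, that library was assumed to vary like the others. Members with few counts, including H4C5 and H3C2, are limited by depth, and the 2022 tests by having 2 p53 libraries.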
